A study of Chelon labrosus with 24 samples.

Results

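Cu-Zn_SOD and XDh are 2 of the 160 genes on a custom array for the liver of the thicklip grey mullet (Chelon labrosus), a coastal fish, and 2 of the 129 genes whose probes were bright enough to be tested. Their probes were found by the gene name in the scanner files, ignoring case and punctuation. The pair was chosen on measured values of these same arrays: XDh had been brought forward by its difference between sites and Cu-Zn_SOD by its change between samplings. Those differences are therefore given below as descriptions, with a standard error and no test. Tests are given for what the choice did not use. These are the site difference of Cu-Zn_SOD averaged over samplings, the sampling difference of XDh averaged over sites, and the relation between the genes.

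Superoxide is a reactive form of oxygen that leaks from the respiratory chain and is released by some oxidases. Copper-zinc superoxide dismutase, the enzyme of the cytosol that Cu-Zn_SOD is named for, turns superoxide into hydrogen peroxide, which catalase, glutathione peroxidases and peroxiredoxins then remove. XDh is read here from its name as xanthine dehydrogenase, which makes urate in the last steps of purine breakdown and in its oxidase form passes electrons to oxygen, giving superoxide and hydrogen peroxide. Both enzymes are abundant in liver.

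The fish were immature and were held in cages in the Pasaia harbour. The 4 groups of 6 liver samples came from its inner and its outer part, each at a first and a second sampling. The sample labels date these to day 5 and day 21 and the series text to 3 and 15 days, so neither date is used below. No unexposed group was analysed here, all groups having been caged in the harbour, and a cage cannot be told apart from its site. The labels number the samples without saying outright that each is 1 fish. They are called fish here, and the spread that the errors and p-values rest on may be technical. In a whole liver sample, a change in the cells present and a change in RNA per cell cannot be told apart.

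Each gene had 4 probes of 55 bases, spotted 4 times each, and all 8 probes were well above background on all 24 arrays. The sequences are shown because they decide how independent the probes are. Capitals mark the longest run of bases that the overlapping probes have in common. The 4 Cu-Zn_SOD probes tiled a single stretch of 122 bases, and the capitals mark 21 bases shared by 3 of them. The XDh probes fell into 2 stretches of 56 bases with 2 probes each, and each pair shared 54 bases.
Cu-Zn_SOD probe 1: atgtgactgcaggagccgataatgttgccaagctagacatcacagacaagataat
Cu-Zn_SOD probe 2: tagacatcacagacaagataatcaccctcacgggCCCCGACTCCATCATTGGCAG
Cu-Zn_SOD probe 3: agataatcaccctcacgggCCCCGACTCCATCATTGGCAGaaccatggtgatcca
Cu-Zn_SOD probe 4: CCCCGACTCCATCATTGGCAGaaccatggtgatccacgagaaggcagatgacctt
XDh probe 1: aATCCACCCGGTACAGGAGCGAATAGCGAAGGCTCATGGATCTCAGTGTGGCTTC
XDh probe 2: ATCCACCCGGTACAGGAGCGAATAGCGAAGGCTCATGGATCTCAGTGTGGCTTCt
XDh probe 3: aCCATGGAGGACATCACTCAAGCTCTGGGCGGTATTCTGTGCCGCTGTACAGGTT
XDh probe 4: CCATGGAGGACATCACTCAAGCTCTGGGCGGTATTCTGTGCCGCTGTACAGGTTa
The scanner files place these probes on no chromosome, and their genome position and exon were not analysed here. Probes of 1 stretch share their target and are not replicates of each other. Over the 24 arrays, the levels of the Cu-Zn_SOD probes correlated with each other at r from 0.998 to 1.000 and those of the XDh probes, which cover both stretches, at 0.996 to 0.999. Values below are from the brightest probe of each gene, which is probe 4 in both cases, with the range over the other probes where it adds something.

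A level is the log2 of the scanner's processed spot signal, averaged over a probe's spots, minus the 75th percentile of its array, so that 1 unit is a doubling and levels below 0 lie under that percentile. Levels are compared between groups for 1 probe, never between probes. Between 371 and 484 probes passed the detection limit on each array, and the 75th percentile lay between 10.7 and 12.1 on the log2 scale. Arrays of a group correlated at r from 0.955 to 0.993 over all probes. Each of 3 slides carried 8 arrays, 2 from every group. On all of them fish of the first sampling were in row 1 and those of the second in row 2, so an effect of the row cannot be told apart from one of sampling. All 8 hepatocyte markers on the array (such as transferrin and ApoE) were well above background on every array. Detection does not show steady levels, and the markers did not all move alike. Mean ApoE was lower at the second sampling, at -2.83 against 0.58 (inner) and -4.11 against 0.17 (outer). Mean transferrin was then higher in inner fish (4.96 against 4.17) and lower in outer fish (4.62 against 5.12). Summed over the 8, first-sampling medians were 7.83 (inner) and 8.19 (outer), and second-sampling medians 8.07 and 8.19. Whether hepatocyte content changed was not tested. The number of arrays limits the precision.

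Cu-Zn_SOD was high at the second sampling and low at the first, at both sites. In the inner harbour its lowest, median and highest levels were 1.08, 1.74 and 1.90 at the first sampling, with a mean of 1.65 ± 0.32 (SD, n = 6). At the second sampling they were 3.24, 3.54 and 3.71, with a mean of 3.49 ± 0.20 (SD, n = 6). Every inner fish of the second sampling lay above every inner fish of the first, with a gap of 1.34 log2 units between the groups. In the outer harbour the levels were 1.36, 1.68 and 2.46 at the first sampling, with a mean of 1.83 ± 0.48 (SD, n = 6). They were 3.26, 3.40 and 3.55 at the second, with a mean of 3.40 ± 0.13 (SD, n = 6). Here too the samplings did not overlap, and the gap was 0.80 units.

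**Figure D1:**
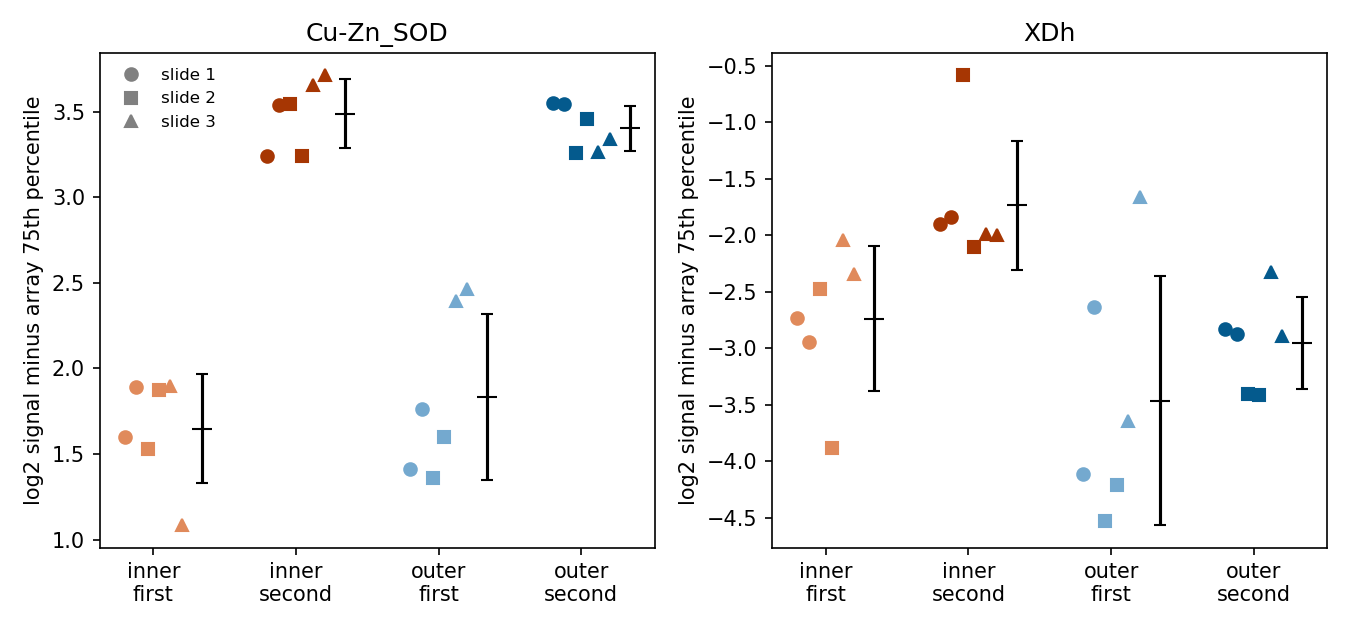
Level of the brightest probe of Cu-Zn_SOD and of XDh in each of the 24 liver samples (log2 signal minus the array's 75th percentile), by site and sampling, with 1 symbol per fish, shaped by slide, and the group mean ± SD (n = 6) in black. Cu-Zn_SOD lies between 1.08 and 2.46 at the first sampling and between 3.24 and 3.71 at the second, while XDh runs from -4.52 to -0.59 with groups that overlap except the sites at the second sampling.

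The second sampling exceeded the first by 1.84 ± 0.19 log2 units (SE) in the inner harbour, or 3.59-fold (95% interval 2.73 to 4.71). In the outer harbour the difference was 1.57 ± 0.19, or 2.97-fold (2.26 to 3.91). These are the values the gene was chosen by, so they carry no test and the intervals do not allow for the choice. Over all 129 genes, 7.75% had samplings without overlap, with the second higher, in the inner harbour and 2.33% in the outer harbour. Cu-Zn_SOD was among them at both sites, and nothing is read from this. The other 3 probes gave the same picture, the 4 probes ranging from 1.82 to 1.84 in the inner and from 1.52 to 1.59 in the outer harbour. Within slides 1, 2 and 3 the inner difference was 1.64, 1.69 and 2.19. The outer difference was 1.96, 1.88 and 0.88, smallest on slide 3, where both outer fish of the first sampling (2.40 and 2.46) stood above the other 4 (1.36 to 1.77).

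The sites differed little in Cu-Zn_SOD. The order of the group means was inner second, outer second, outer first and inner first, and neighbours within a sampling differed by less than their SDs. Inner minus outer was -0.19 ± 0.19 (SE) at the first sampling and 0.09 ± 0.19 at the second, with overlapping groups both times. Averaged over samplings, the site difference was -0.05 ± 0.13 log2 units and did not pass limma's test (adjusted p = 0.882 over all 476 probes tested). Its 95% interval ran from -0.33 to 0.23, or 0.80-fold to 1.17-fold, so a larger site difference on this scale lies outside it. None of the 4 probes passed at an adjusted p of 0.05 (unadjusted p from 0.633 to 0.788), and over all probes 7.35% passed in either direction. The within-slide values of this average were 0.00, 0.13 and -0.28, and its sign changed with the scaling between arrays. They combine values that differed more: 0.16, 0.22 and -0.94 at the first sampling, and -0.16, 0.03 and 0.38 at the second. The change of the site difference from the first to the second sampling was 0.27 ± 0.27.

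XDh, whose product releases superoxide in its oxidase form, was highest in inner fish of the second sampling and lowest in outer fish of the first. In the inner harbour its lowest, median and highest levels were -3.88, -2.61 and -2.04 at the first sampling (mean -2.74 ± 0.64, SD, n = 6). At the second they were -2.11, -1.95 and -0.59 (mean -1.74 ± 0.57). In the outer harbour they were -4.52, -3.88 and -1.67 at the first sampling (mean -3.46 ± 1.10) and -3.41, -2.88 and -2.33 at the second (mean -2.96 ± 0.41). From the highest down, the order was inner second, inner first, outer second and outer first. The means of inner fish of the first sampling and outer fish of the second, neighbours in that order, differed by less than either SD.

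At the second sampling the sites did not overlap: each of the 6 inner fish exceeded the highest of the 6 outer fish, with a gap of 0.22 log2 units. Inner minus outer was 1.22 ± 0.40 (SE), or 2.33-fold (95% interval 1.31 to 4.13). Its size depended on the scaling between arrays, with 0.75 by quantile normalization and 0.80 in the authors' deposited table. At the first sampling it was 0.73 ± 0.40, or 1.66-fold (0.93 to 2.94), with the highest fish of all at that sampling in the outer group. The mean of both was 0.97 ± 0.28. XDh was chosen by these differences, so no test is given and the intervals do not allow for the choice. At the second sampling, 6.98% of the 129 genes parted the sites without overlap, inner higher. Within slides 1, 2 and 3 the difference was 0.53, 1.19 and 0.46 at the first sampling. At the second it was 0.98, 2.06 and 0.62. All 6 of these values had the inner fish higher, and slide 2 held the larger values at both samplings. Slide 2 also held the inner fish of the second sampling that stood apart at -0.59, from the array with the lowest 75th percentile of all (10.7). Without that fish the difference at the second sampling was 0.99.

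**Figure D2:**
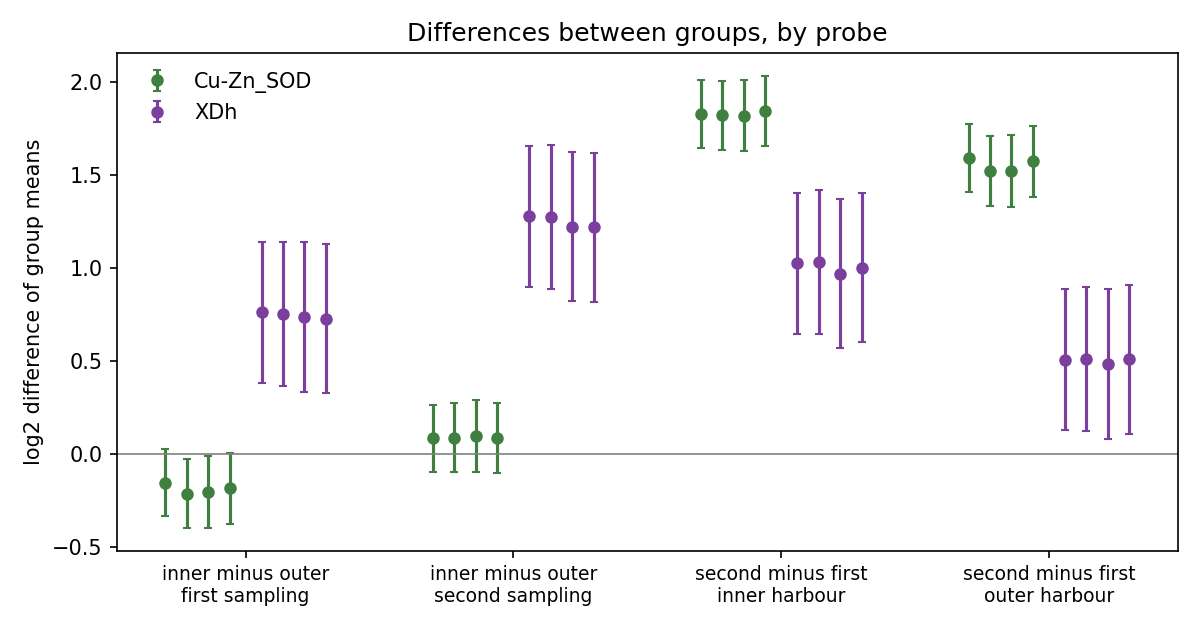
Log2 difference of group means ± SE for each of the 4 probes of Cu-Zn_SOD (green) and of XDh (purple) in the 4 comparisons of site and of sampling, with 6 fish in each group. The probes of a gene lie close together in each comparison, Cu-Zn_SOD between 1.52 and 1.84 for second minus first and XDh between 0.73 and 1.28 for inner minus outer.

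The change of XDh between samplings averaged over sites, which the choice of the gene did not use, lay close to the threshold. It missed the threshold for the brightest probe. Second minus first was 1.00 ± 0.40 (SE) in the inner and 0.51 ± 0.40 in the outer harbour. The values of each harbour and the counts that follow share groups with the choice, so they are descriptions. In the inner harbour 5 of 6 fish of the second sampling lay above all 6 of the first, and in the outer harbour 0 of 6 did. Counted the other way, 5 of 6 inner and 4 of 6 outer fish of the first sampling lay below all 6 of the second. Averaged over sites the difference was 0.75 ± 0.28, or 1.69-fold (95% interval 1.12 to 2.53), with limma's adjusted p = 0.0514. With slide as a block the same difference passed (adjusted p = 0.0413), as it did with the sample number as a block (0.88, adjusted p = 0.0294), and in all it passed under 6 of 11 other settings. Probes 1 and 2, which share a stretch, passed with adjusted p of 0.0367 and 0.0384, and probe 3 did not (adjusted p = 0.0621). Over all probes, 15.3% passed with the second sampling higher. The 4 probes of XDh differed by only 0.73 to 0.77, so the side of the threshold on which each fell reflects small differences in value. Within slides 1, 2 and 3 the averaged difference was 0.74, 1.40 and 0.12. Without the inner fish at -0.59 it was 0.64, and without the outer fish of the first sampling at -1.67 it was 0.93 (adjusted p = 0.00489). Both of these fish were on arrays with a 75th percentile of 10.7. From the first to the second sampling the site difference of XDh changed by 0.49 ± 0.57, also a description.

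**Figure D3:**
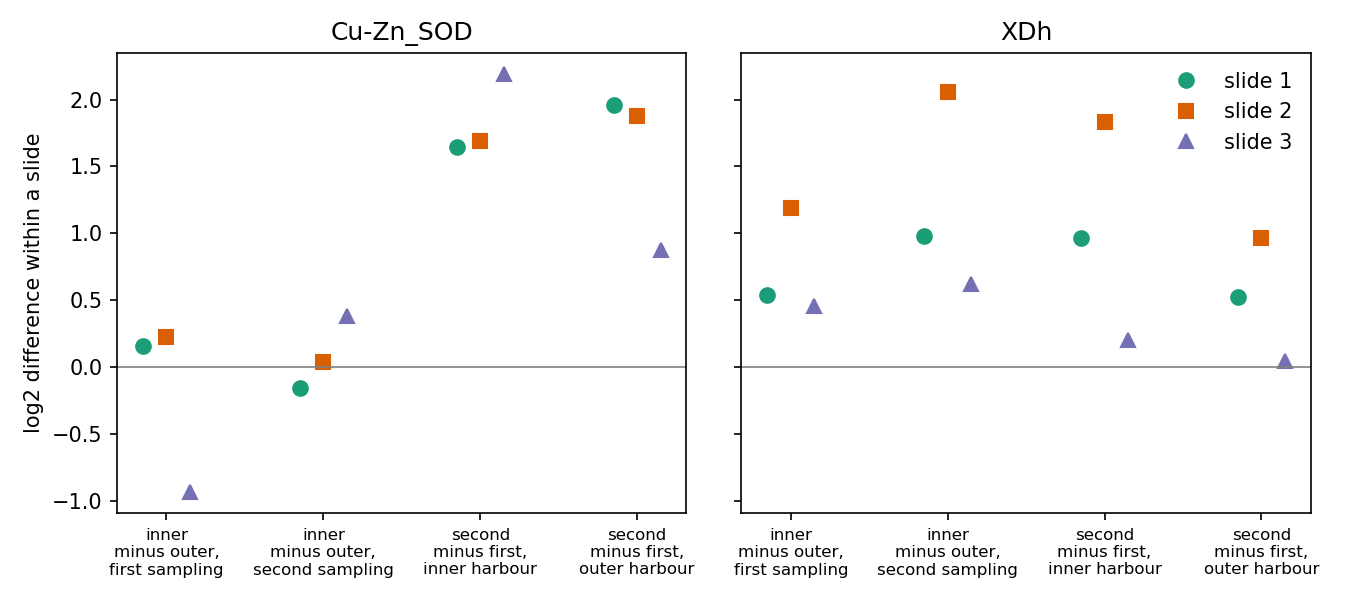
Log2 difference within each of the 3 slides (1 symbol per slide, 2 fish in each group on a slide) for Cu-Zn_SOD and XDh, in the 4 comparisons of site and of sampling. Cu-Zn_SOD has the second sampling higher on every slide at both sites (0.88 to 2.19) and site differences on both sides of 0, while all 3 slides have XDh higher in inner fish at both samplings (0.46 to 2.06).

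On the scale used here, the genes differed in how much fish of a group varied. The pooled SD within groups was 0.31 log2 units for Cu-Zn_SOD, the 110th from the highest of the 129 genes, and 0.73 for XDh, the 21st. The median over genes was 0.44. This contrast depended on the scaling between arrays. On this scale the SE of an averaged difference was 0.13 for Cu-Zn_SOD and 0.28 for XDh. When scaled by the spike-in probes it was 0.18 and 0.21. In outer fish of the first sampling, the 75th percentiles of the arrays were, in rising order, 10.75, 11.01, 11.05, 11.55, 11.84 and 11.88. XDh was -1.67, -2.64, -3.64, -4.11, -4.52 and -4.21 in the same order. In inner fish of the second sampling, the lowest, 10.69, had XDh at -0.59 and the highest, 11.60, had it at -1.84. How far the spread of XDh follows the brightness of the array was not tested. Over all 4 probes of a gene, spots of 1 probe on 1 array had a median SD of 0.10 for Cu-Zn_SOD and 0.06 for XDh. On probe 4 alone, the spot SDs ran from 0.01 to 0.09 for Cu-Zn_SOD and from 0.02 to 0.18 for XDh. These figures leave out labelling and hybridisation. For both genes the group with the widest SD was outer fish of the first sampling.

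Fish with high Cu-Zn_SOD for their group did not reliably have high XDh. After each gene was centred on its group means, Pearson's r over the 24 fish was 0.35 (two-sided permutation p = 0.239 within groups) and Spearman's rho 0.23 (permutation p = 0.353). Without the 2 fish farthest from the median of Cu-Zn_SOD, r was 0.23 (permutation p = 0.349). Over the 8256 pairs of tested genes the median r was 0.15, with the 5th and 95th percentiles at -0.35 and 0.62. Within groups r was -0.38 and 0.16 in inner fish of the first and the second sampling, and 0.72 and -0.08 in outer fish. Of these 4, the outer fish of the first sampling had the smallest exact permutation p (0.0972 for r, 0.389 after Benjamini-Hochberg adjustment). Their rho was 0.89 (exact permutation p = 0.0333, adjusted 0.133). Within slides, r of the centred values was 0.59, 0.04 and 0.20. The sign of r over the 24 fish changed with the scaling between arrays.

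**Figure D4:**
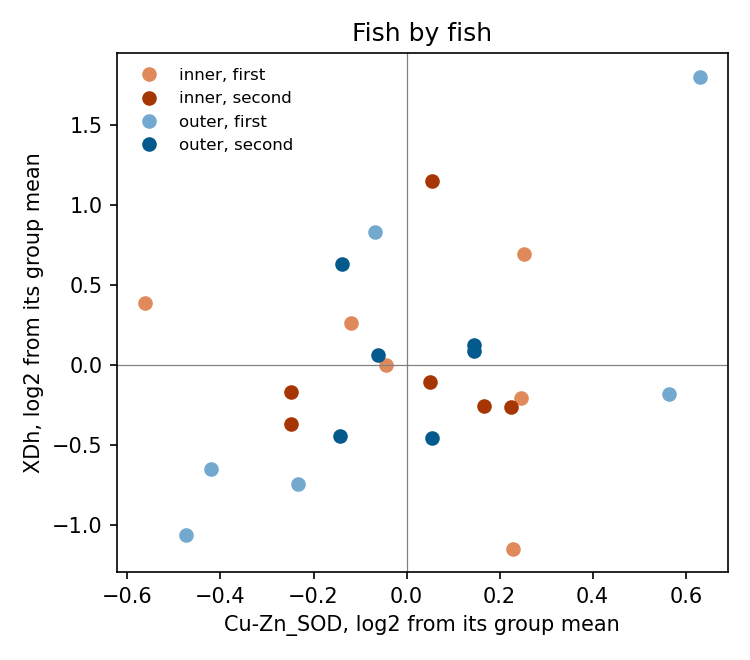
XDh against Cu-Zn_SOD in 24 fish, each gene as the log2 distance from its group mean, coloured by group. The points form no clear line (r = 0.35), and the spread along the XDh axis is wider than along the Cu-Zn_SOD axis.

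Among the other tested genes, GST (a glutathione transferase, which joins glutathione to foreign and oxidised compounds) followed Cu-Zn_SOD most closely over the 24 arrays, with Pearson's r of 0.91. It was followed by TBTbp (0.80), CYP7 (0.80), alcohol_DHVI (0.74) and Peroxiredoxine (0.69). ApoE (-0.89) and Cathepsin_L (-0.69) ran most nearly opposite. These are descriptions over arrays that share the 4 groups. With groups centred, r was 0.24 with GST, -0.21 with CYP7, -0.04 with alcohol_DHVI and -0.16 with ApoE, and with Cathepsin_L its sign turned (0.44). It was 0.63 with TBTbp and 0.38 with Peroxiredoxine.

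For XDh the genes with the highest r were Mugil_cephalus_Cox3 (0.69), UGT (0.69), TBTbp (0.68), 18S_rRNA (0.67) and 28SrRNA (0.66). BHM (-0.53) and Leukotriene_A4_hydrolase (-0.52) had the lowest. UGT is named for the glucuronosyltransferases, which make compounds soluble for excretion. With groups centred, r was 0.75 with Mugil_cephalus_Cox3, 0.69 with TBTbp, 0.43 with UGT, -0.68 with BHM and -0.37 with Leukotriene_A4_hydrolase. With 18S_rRNA it rose to 0.85 and with 28SrRNA to 0.84. Cu-Zn_SOD had 0.51 with each of them, so both genes followed these probes within groups, and the part of that in the relation between the genes was not tested. The labelling was primed on poly(A) tails, which ribosomal RNA mostly lacks, so these probes are not a usual measure of a transcript. Under the other scalings r of the centred values with 18S_rRNA lay between 0.44 and 0.86 for XDh and with 28SrRNA between -0.06 and 0.86. For Cu-Zn_SOD they ran from 0.07 to 0.51 and from 0.01 to 0.54. Inner minus outer in 18S_rRNA was 0.07 ± 0.24 (SE) at the first and -0.09 ± 0.24 at the second sampling. In 28SrRNA it was -0.02 ± 0.23 and -0.03 ± 0.23. The part of what these ribosomal probes measure in the spread of XDh between fish, or in its site difference, was not tested.

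Of 3 tested enzymes that remove the hydrogen peroxide made by superoxide dismutase, 1 fell between samplings in the outer harbour, 1 rose in the inner harbour, and the last passed at neither site. Over all 129 genes, 13.2% fell in the outer and 17.1% rose in the inner harbour, and nothing is read from the count of 3. Catalase was lower at the second sampling in the outer harbour by 1.48 log2 units (-1.48 ± 0.24, SE, limma adjusted p = 1.13e-04) and had -0.13 ± 0.24 in the inner harbour. At the second sampling its level was -1.71 ± 0.51 (SD, n = 6) in inner and -2.64 ± 0.33 in outer fish, a site difference of 0.94 ± 0.24 (SE, adjusted p = 0.0140). Peroxiredoxine, a thiol peroxidase, rose between samplings in the inner harbour (0.49 ± 0.17, adjusted p = 0.0339) and had 0.32 ± 0.17 in the outer harbour (adjusted p = 0.221). Its inner call was lost under 8 of 12 other settings. Glutathione_peroxidase_2 passed in none of the 4 comparisons, with 0.12 ± 0.30 and 0.32 ± 0.30 between samplings and an unadjusted p over 0.05 in each. GST rose with Cu-Zn_SOD at both sites, by 2.77 ± 0.20 in the inner (from -3.63 ± 0.39 to -0.86 ± 0.38, SD, n = 6) and by 1.80 ± 0.20 in the outer harbour (from -3.51 ± 0.25 to -1.71 ± 0.30), with adjusted p of 1.21e-10 and 3.91e-07. At the second sampling it was also higher in inner fish (0.85 ± 0.20, adjusted p = 0.00749, lost under 4 of 12 other settings).

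The lists of related genes (superoxide and peroxide removal, glutathione, heme and metal binding, purine breakdown, peroxisome, respiratory chain and cytochrome P450) held 41 other genes, of which 30 were tested. The purine list held XDh alone. At the first sampling 3 of 30 were higher and 1 lower in inner fish, with 5.43% higher and 7.75% lower over all 129 genes. At the second, 6 were higher and 0 lower, against 11.6% and 0%. Between samplings 7 of 30 rose and 3 fell in the inner harbour, against 17.1% and 7.75% of all genes. In the outer harbour 2 rose, GST and CYP7, and 4 fell, against 2.33% and 13.2%. The 2.33% stands for 3 genes, which are these 2 and Cu-Zn_SOD, so it is no separate background for the rise. The median difference of the 30 genes was -0.05 and 0.15 between sites and 0.13 and 0.05 between samplings, while over all genes it was -0.07, 0.10, 0.15 and -0.05 in the same order. At an unadjusted p under 0.05, the 30 genes had 4 higher and 3 lower in inner fish at the first sampling and 9 and 1 at the second, where all 129 genes had 9 and 26, and 22 and 2. Between samplings the 30 had 9 higher and 4 lower in the inner and 5 and 5 in the outer harbour, beside 34 and 14, and 11 and 21, of all genes. No difference between the lists and this background was tested. Of the 6 genes higher in inner fish at the second sampling, 1, CYP_2, also passed under quantile normalization and in the authors' deposited table.

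The peroxisome is an organelle that makes and destroys hydrogen peroxide. Of 6 tested genes on its list, 4 fell between samplings in the outer harbour and 0 rose, against 13.2% and 2.33% of all genes. They were catalase, AOX (named for acyl-CoA oxidase, which releases hydrogen peroxide, -1.43 ± 0.28, adjusted p = 8.39e-04), PMP70 (a membrane protein of the organelle, adjusted p = 0.00468) and MF1 (-1.09 ± 0.33). The MF1 signal of the second sampling was detected in 4 of 6 outer fish, which limits how well the size of its fall is known, and the call was lost under 6 of 11 other settings. The 2 that did not pass there were the nuclear receptors of lipid metabolism PPARa (-0.80 ± 0.51, adjusted p = 0.328) and PPARg (0.52 ± 0.30, adjusted p = 0.268). Of the same genes, 3 of 6 were at the second sampling higher in inner fish, against 11.6% of all genes, namely catalase, MF1 (1.23 ± 0.33) and PPARg (1.19 ± 0.30). The site call was lost under 2 of 12 other settings for catalase and for PPARg, and under 5 of 11 for MF1, whose difference then went down to 0.39. PPARg was also higher in inner fish at the first sampling (0.98 ± 0.30, adjusted p = 0.0364, lost under 5 of 12 other settings). PPARa fell in the inner harbour (-1.51 ± 0.51, adjusted p = 0.0316, 3 of 4 probes), with 4 of 6 inner fish of the second sampling well above background. Its call was lost with the normexp background, where the difference was -0.29, and with the sample number as a block, and held in 17 of 24 fits that left out 1 array.

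Among heme and metal binding genes, Heme_oxigenase32 (the enzyme that breaks down heme and is induced by oxidants) was 3.18 ± 0.44 log2 units higher in inner fish at the first sampling. It fell by 2.07 in the inner harbour (SE 0.44). Its own site difference at the second sampling, when XDh parted the sites, was -0.11 ± 0.44. Transferrin, the plasma iron carrier, was lower in inner fish at the first sampling (-0.94 ± 0.26, adjusted p = 0.0249) and rose in the inner harbour (0.78 ± 0.26, adjusted p = 0.0298), each call being lost under 7 of 12 other settings. MT, named for the metal-binding metallothioneins, passed in none of the 4 comparisons, its differences running from -0.34 to 0.70 with an SE of 0.36.

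No tested gene of the respiratory chain, the main source of superoxide in most cells, passed in any of the 4 comparisons by limma (0 of 9, and 0 of 9 at an unadjusted p under 0.05). Over all 129 genes, 0% to 17.1% passed by comparison and direction, and 24 to 48 genes per comparison at an unadjusted p under 0.05. The array held 14 genes of this list. Of those tested, Mugil_cephalus_ATP6 was well above background on only 2 to 4 of 6 arrays in a group. Mugil_cephalus_Cox3, a subunit of cytochrome oxidase, had differences from 0.05 to 0.19 and Chelon_labrosus_cytb, cytochrome b, from 0.03 to 0.16. Of 7 cytochrome P450 genes, 4 rose in the inner harbour, against 17.1% of all genes: CYP7 (a family with enzymes of bile acid synthesis, 3.16 ± 0.29), CYP2_N (1.52 ± 0.42), CYP1A1 (which oxidises aromatic pollutants, 1.03 ± 0.28) and CYP3 (0.66 ± 0.17). The call of CYP1A1 was lost under 4 of 12 other settings and that of CYP3 under 2 of 12, where it went down to 0.35. CYP_scc-24 fell there (-2.22 ± 0.46, 1 of 7, against 7.75%). In the outer harbour 1 rose, CYP7 (1.20 ± 0.29, lost under 1 of 12 other settings). CYP_2 was higher in inner fish at both samplings, by 0.93 ± 0.30 (adjusted p = 0.0461, lost under 7 of 12 other settings) and by 1.85 ± 0.30 (adjusted p = 3.25e-04), and CYP7 at the second (1.15 ± 0.29, lost under 3 of 12).

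Whether the site difference itself changed between samplings was tested for the 30 listed genes, and 6 passed (limma), beside 10.9% of all 129 genes. They were catalase, GST, Heme_oxigenase32, Transferrin, AOX and CYP7. The median change over all probes tested was itself 0.27 on this scale, and lay between -0.01 and 0.45 over the other scalings. These 6 calls were not followed under the other scalings.

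Other cell types were measured beside these results. Trypsin, the only marker of the exocrine pancreas on the array, a tissue that in some fish lies within the liver, was well above background on every array. Its median level was -2.70 (inner) and -2.36 (outer) at the first sampling and -0.08 and 1.66 at the second. Trypsin thus moved in the same direction between samplings as Cu-Zn_SOD, with wide overlap (from -4.34 to 2.85 and from -3.46 to 4.78 in inner fish), and its part was not tested. The summed level of 2 leukocyte genes had medians of -4.76 (inner) and -3.05 (outer) at the first sampling and -3.28 and -3.39 at the second. Of the 2, MHC_II was well above background on 1 of 6 inner and 6 of 6 outer arrays at the first sampling. At the second it was so on 4 of 6 arrays at each site. The array carried no marker of red cells or gonad among those listed.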

How the data were processed

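Liver total RNA of 24 samples was labelled with Cy3 and hybridised to 1 array each, per the labels. The intensity values deposited by the authors are processed spot signals of Agilent Feature Extraction 9.5.3.1, which subtracted background, per the file headers. A second deposited table holds log2 values; its scale follows from r of at least 0.992 of each of the 24 columns with its own array, its column medians lie between 6.774 and 6.818, and how it was normalized or centred is not given in the sources used here. Spots flagged as outliers (40 to 125 per array) were left out, log2 signals were averaged per probe, and each array was set relative to its 75th percentile. No spot was saturated (0). Probes with at least 50% of spots well above background on at least 6 arrays were tested: 476 probes in 129 genes.

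All 24 arrays entered 1 limma model (limma 3.58.1, R 4.3.3) of the 4 group means, tested two-sided, with Benjamini-Hochberg adjustment over all probes and a threshold of 0.05. It was also run on simulated data with known changes and independent noise for each probe. That run leaves out the likeness between probes of a gene and the scaling between arrays, so it does not test these. Relations used 100000 permutations within groups, or all of them in groups of 6 (Python 3.11.15, scipy 1.17.1). The members and gene lists were chosen with earlier results of these data known; Mugil_cephalus ND and ATP genes, cyt_C, the copper carrier solute_carrier_family31_1 and the untested NAD(P)Hquinone_dehydrogenase were added to the lists by hand. Listed genes are named where called, otherwise the 2 brightest of a list, and likeness was ranked by Pearson's r (5 highest, 2 lowest). A gene is represented by its brightest probe. Same-numbered fish of different groups deviated together no more than others (median r 0.016 in 29 pairs, against 0.022 in 187 other pairs). The numbers were therefore not used as pairs in the main model, though these medians cannot exclude a pairing. Alternatives were 6 scalings or value sets, 2 filters, blocks by slide and number, the mean over probes, only the groups compared, and leaving out each array.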

Additional observations from a re-analysis of the deposited data

Results flagged for a closer look

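For XDh, 1 fish stood apart from the other 5 of its group by Dixon's gap criterion on all 4 probes, of 32 groups of a probe examined. This was inner harbour, second sampling, replicate 3, with levels of -0.834, -0.752, -0.597 and -0.588 on probes 1 to 4, which share their stretches in pairs. Chance alone marks a group now and then at this criterion, at about 5% of groups. No group of Cu-Zn_SOD was marked.

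For 6 of the 30 listed genes tested, the inner minus outer difference changed between samplings by limma's test, beside 10.9% of all 129 genes. On the log2 scale the change was 1.354 for Catalase, 0.975 for GST, 1.279 for Transferrin, 1.574 for AOX and 1.961 for CYP7. Each of these moved toward the inner fish at the second sampling. For Heme_oxigenase32 it was -3.292. The median change over all probes tested was itself 0.27, and these calls were not followed under the other scalings.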

How the results depend on the processing

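Over the scalings the median difference of all probes lay between -0.36 and 0.45, depending on the comparison. Relative to that median, Cu-Zn_SOD rose by 1.52 to 1.70 in the inner and by 1.49 to 1.65 in the outer harbour, and XDh was higher in inner fish by 0.62 to 0.81 and 0.74 to 1.12. Unadjusted, the inner rise of Cu-Zn_SOD was 1.5015 by quantile normalization and 1.5249 with the 75th percentile over probes detected on all arrays. Its averaged site difference changed sign, at 0.0519 (quantile), 0.0581 (percentile of detected probes), 0.0158 (spike-ins) and 0.0477 (deposited table), and from -0.0972 to 0.0132 when 1 array was left out (above 0 without inner first replicate 8 at 0.0064, outer first replicate 5 at 0.0066 or outer first replicate 8). It passed in none of these. The averaged sampling difference of XDh passed in 6 of 11 other settings: 0.8616 with the array median, 0.7545 without the filter, with the all-array filter or with slide as a block, 0.8785 with the sample number as a replicate block (adjusted p = 0.0294), and 0.7542 as the mean over probes. With 1 array left out it ran from 0.6395 to 0.9344, passing in 6 of 24 (without inner first 7, outer first 2, outer first 8, inner second 4, outer second 4 or outer second 5). The r between the genes was -0.0178 (quantile), -0.2644 (percentile of detected probes), -0.0693 (spike-ins) and -0.0614 (deposited table), and 0.5656 with the replicate block (permutation p = 0.0154), with 0.0782 to 0.4632 over single arrays left out. The replicate block left the other member differences within their spread. Counts of listed genes called moved at the first sampling from 4 to 1 (spike-ins, replicate block, only the groups compared) or 2 (no filter), and to 1 to 5 with 1 array left out (1 without inner first 7 or outer first 3, and 2 without inner first 2, 3 or 8). At the second sampling they moved from 6 to 1 (quantile, deposited table), in the inner harbour from 10 to 6 (spike-ins) and in the outer from 6 to 10 (no filter). The cause was not tested. Only the groups compared could give no value for the averaged differences or for r, and the filters do not bear on r.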
